A study of Mus musculus with 2 samples.

Results

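The 35 genes described here encode the enzymes, carriers and import factors that burn fatty acids in mitochondria and peroxisomes. They were chosen by name, with earlier results of these data known, and all 35 were found among the 32285 genes of the files. By compartment, 21 are mitochondrial, 12 are peroxisomal, and 2 (Eci2 and Acad11) have products known in both and were kept apart. The samples were 2 libraries of nuclei from frozen mouse kidney, made on the 10x Genomics Chromium system, in which each captured RNA molecule is counted through a unique molecular identifier (UMI). In both groups the mice were male, T1+/+ and 11 weeks old. The nephrectomy library came from a remnant kidney: the right kidney was taken out and, 1 week later, both poles of the left kidney were tied off with suture. For the sham library the flanks were opened, the kidneys exposed and the wounds closed again. Tissue was taken 4 weeks after surgery. The labels do not say whether a library pooled animals.

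Fatty acid oxidation shortens an activated fatty acid by a pair of carbons per cycle. Mitochondria take long chains through the carnitine shuttle and pass the electrons to the respiratory chain, whereas peroxisomes shorten very long and branched chains and pass electrons to oxygen. The proximal tubule, which reabsorbs most of the glomerular filtrate, draws much of its energy from this pathway, and the nuclear receptor PPAR-alpha is a known activator of many of its genes.

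The sham library held 3084 barcodes with a median of 5140 UMIs (21365116 in all), and the nephrectomy library 3299 barcodes with a median of 6844 (28284727 in all). The libraries shared 2 barcodes. After filtering, nuclei were clustered without any of the 35 genes and named from marker genes, so a class name means nuclei like that type. Suspected doublets were then removed, which left 2822 sham and 3029 nephrectomy nuclei. The proximal tubule class had 974 sham and 1107 nephrectomy nuclei, and the summed level of its 10 general markers was 12030 and 12480 UMIs per 1000000. The segment markers in the same class were at 7737 and 10090 for S1, 3604 and 2270 for S2, and 4996 and 3300 for S3, and their part in the results below was not tested. Of 10 genes known to be higher in male proximal tubule, 9 were at least 1.5 times lower there in nephrectomy, with a median log2 ratio of -1.43; both libraries are labelled male. One of them, Slc7a13, was at 733 UMIs per 1000000 in sham and 103 in nephrectomy. Slc7a13 and Cyp7b1 (578 and 285) are also among the S3 markers used here. Slc22a28 (960 and 309), Slc22a30 (918 and 393) and Cyp4b1 (935 and 843) are also among the S2 markers. The segment marker and male-biased differences are therefore not separate. The part of the male-biased difference in the results was not tested either. Each group was 1 library, so no difference between sham and nephrectomy has a replicate check and no p-value is given. Levels are UMIs per 1000000 UMIs of the class (counts per 1000000, CPM), and each interval, at 95%, covers counting error alone.

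The promoters of 4 members are shown because they belong to genes that were higher in nephrectomy (Ehhadh and Cpt1a), to a gene that was not (Acadm), and to a pair of genes that start back to back (Hadha and Hadhb). They are RefSeq sequences of GRCm38.p6, trimmed to bases in no annotated exon and written 5′ to 3′ on the gene's strand. Capitals mark AGGTCA, the hexamer bound by many nuclear receptors, and GGGCGG, the GC box, on either strand (TGACCT and CCGCCC when reversed). The Cpt1a stretch lies before a RefSeq start but inside the gene as GENCODE annotates it (chr19:3322334-3385733).
Ehhadh, chr16:21787835-21788084, minus strand: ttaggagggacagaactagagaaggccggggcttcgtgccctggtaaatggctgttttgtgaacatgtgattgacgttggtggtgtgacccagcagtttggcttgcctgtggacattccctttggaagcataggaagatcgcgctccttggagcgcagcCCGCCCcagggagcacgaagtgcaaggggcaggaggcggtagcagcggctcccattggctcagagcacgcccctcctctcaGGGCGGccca
Cpt1a, chr19:3323051-3323284, plus strand: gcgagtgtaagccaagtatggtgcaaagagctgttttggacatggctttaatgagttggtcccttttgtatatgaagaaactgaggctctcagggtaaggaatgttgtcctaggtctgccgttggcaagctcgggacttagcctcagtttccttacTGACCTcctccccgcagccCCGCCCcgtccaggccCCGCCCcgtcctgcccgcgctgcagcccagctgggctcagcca
Acadm, chr3:153944644-153944893, minus strand: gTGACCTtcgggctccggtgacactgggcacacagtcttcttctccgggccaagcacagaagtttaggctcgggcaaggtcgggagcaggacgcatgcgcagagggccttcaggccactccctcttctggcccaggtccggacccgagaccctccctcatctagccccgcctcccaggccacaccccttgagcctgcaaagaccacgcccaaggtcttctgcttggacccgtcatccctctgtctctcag
Hadhb, chr5:30155163-30155247, plus strand: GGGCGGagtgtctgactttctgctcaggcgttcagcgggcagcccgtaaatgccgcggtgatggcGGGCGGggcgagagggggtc

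Promoters were found for 32 of the 35 genes, and those of Hsd17b4, Decr1 and Acaa2 were not used here. In the 250 bases before the RefSeq start, AGGTCA lay in 7 of the 32 (21.9%): Acadm, Acadvl, Cat, Cpt1a, Echs1, Scp2 and Slc27a2. Of all 32851 promoters searched, 14% held it. A direct repeat of AGGNCA with 1 base between the copies, a relaxed form of the paired site to which PPAR-alpha binds, lay in none of the 32 and in 0.338% of all promoters. The GC box lay in 21 of the 32 (65.6%), against 32.7% of all promoters. Ehhadh, which had the largest ratio of nephrectomy to sham among the members in S1 nuclei, carried 2 GC boxes and no AGGTCA in the stretch shown, whereas Acadm carried 1 AGGTCA. These are matches of letters in a short window. Members were counted by gene and all promoters by entry, whether or not the gene was measured here, so the shares are not strictly alike.

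In proximal tubule nuclei, 13 of the 35 genes were at least 1.5 times higher in nephrectomy and 4 were at least 1.5 times lower. Of the 14463 genes with at least 20 UMIs there, 10.8% were that much higher and 11.5% that much lower. The median log2 ratio of nephrectomy to sham was 0.31 over the 35 genes and 0.02 over all genes. Mitochondrial members had 7 higher and 2 lower of 21, with a median of 0.29. Peroxisomal members had 4 higher and 2 lower of 12, with a median of 0.26, and both shared members were higher. The genes of highest ratio, Acsl1 and Ehhadh, belong to different compartments, so genes above the bound were found in either organelle.

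**Figure D1:**
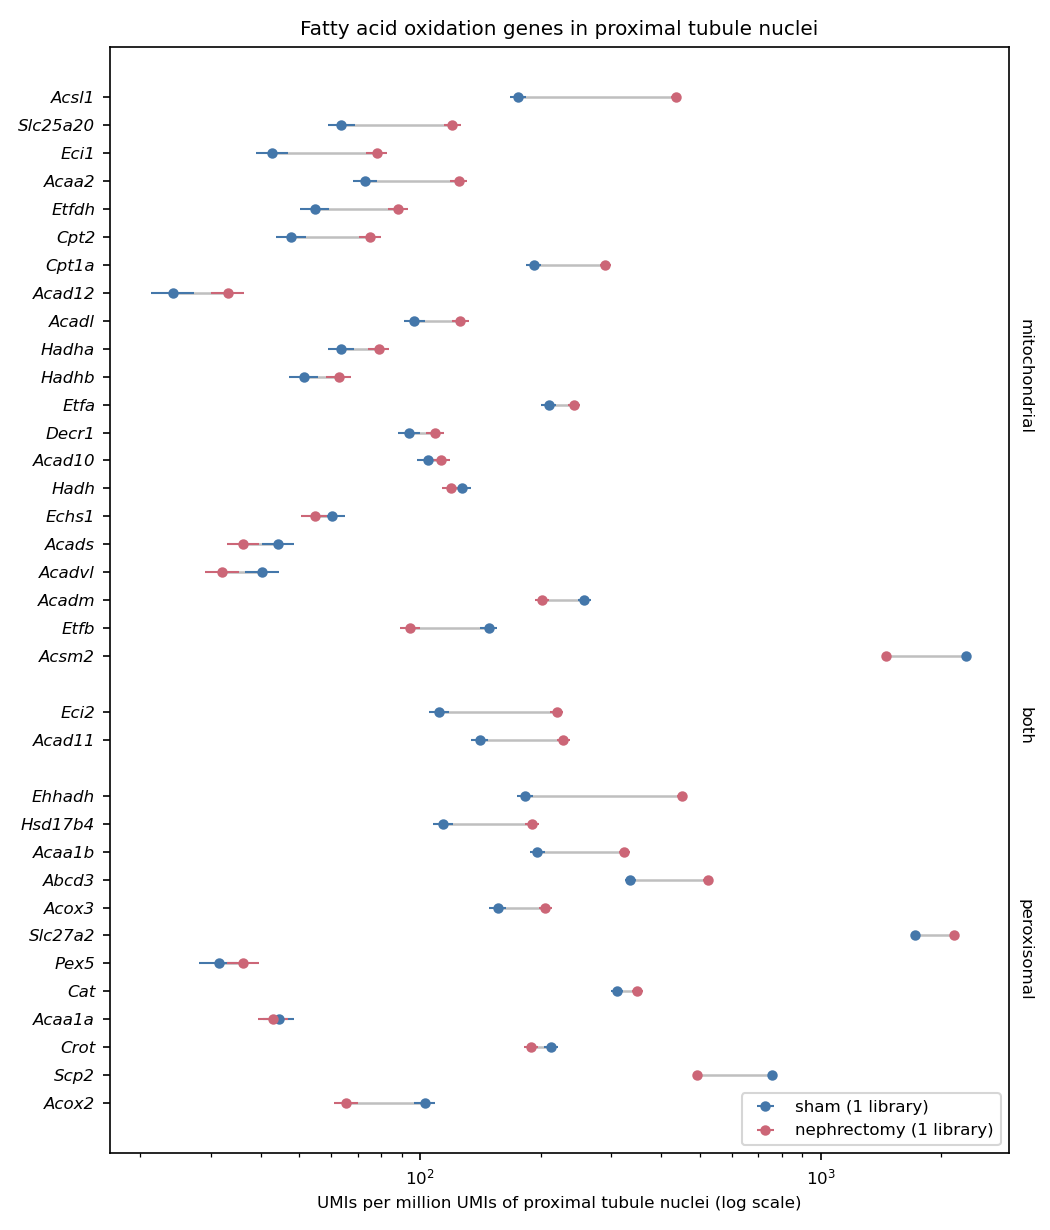
Level of each of the 35 genes in proximal tubule nuclei, in CPM on a log axis, in the sham (blue) and nephrectomy (red) library, with exact 95% Poisson intervals and grouped by compartment. Acsl1 and Ehhadh lie furthest to the right of their sham values, and Acsm2, Etfb, Scp2 and Acox2 lie to the left of theirs.

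Of the 5 members that activate fatty acids at mitochondria or carry them in, 4 were at least 1.5 times higher in nephrectomy and 1 lower. Acsl1, a long-chain acyl-CoA synthetase of the outer mitochondrial membrane, was at 176 CPM in sham and 436 in nephrectomy proximal tubule, a ratio of 2.48 (2.35 to 2.61). Slc25a20, the carrier that exchanges acylcarnitine for carnitine across the inner membrane, was at 63.7 and 120, a ratio of 1.89 (1.73 to 2.07). Cpt1a, the outer-membrane carnitine palmitoyltransferase that controls the flow of long chains, was at 192 and 290, a ratio of 1.51 (1.43 to 1.59). Its inner-membrane partner Cpt2 was at 47.7 and 75.0, a ratio of 1.57 (1.41 to 1.75). These 4 genes were thus above the 1.5 bound, Cpt1a by the smallest margin. The medium-chain synthetase Acsm2 went the other way. It was at 2306 in sham and 1460 in nephrectomy, a ratio of 0.633 (0.621 to 0.645).

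None of the 6 mitochondrial acyl-CoA dehydrogenases among the members, which carry out the opening oxidation of each cycle, passed either bound in proximal tubule nuclei as a whole. The very long-chain enzyme Acadvl was at 40.4 CPM in sham and 32.1 in nephrectomy (ratio 0.795, 0.694 to 0.912), the medium-chain enzyme Acadm at 257 and 202 (0.785, 0.744 to 0.828), and the short-chain enzyme Acads at 44.3 and 36.2 (0.817, 0.718 to 0.930). Acadl, the long-chain enzyme, was at 96.8 and 126 (1.30, 1.21 to 1.41). All 4 of these lay between the bounds, and 3 of them had ratios below 1. The neighbouring genes Acad10 (ratio 1.08) and Acad12 (1.37) lie next to each other on chromosome 5, and reads could be split between them. In S1 nuclei alone Acadl had a ratio of 2.005 (1.68 to 2.41) and Acad12 of 1.76 (1.31 to 2.42), both past the bound.

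The later steps of the mitochondrial cycle varied by gene. The thiolase Acaa2 was at 73.0 CPM in sham and 125 in nephrectomy, a ratio of 1.71 (1.57 to 1.86), and the enoyl-CoA isomerase Eci1, needed for unsaturated chains, at 42.8 and 78.0, a ratio of 1.82 (1.63 to 2.04). Hadha and Hadhb, the subunits of the trifunctional protein, had almost the same ratio, 1.24 (1.13 to 1.37) and 1.22 (1.10 to 1.37). Their annotated starts have 85 bases between them on opposite strands, and the stretch between them is the Hadhb sequence shown above. The short-chain hydratase Echs1 (0.906), the dehydrogenase Hadh (0.940) and the dienoyl-CoA reductase Decr1 (1.16) stayed within the bounds.

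Electron transfer from the cycle showed differences in both directions. Etfdh, which passes electrons from the flavoprotein to ubiquinone, was at 54.6 CPM in sham and 88.1 in nephrectomy, a ratio of 1.61 (1.46 to 1.79). The flavoprotein itself has an alpha and a beta subunit. Etfa was at 209 and 243 (ratio 1.16, 1.10 to 1.23), whereas Etfb was at 148 and 94.6 (0.637, 0.591 to 0.687). Both subunits are needed for the protein, and their messages had ratios on either side of 1. The 13 mitochondrially encoded genes, which give subunits of the respiratory chain, had 1 higher and 1 lower and a median log2 ratio of -0.29 in the same nuclei. Their messages are made in mitochondria, outside the nuclei that were captured, so this value does not measure respiratory chain expression. The median share of mitochondrial UMIs was 0.794% in sham and 0.717% in nephrectomy proximal tubule nuclei. The part of nuclei preparation was not tested.

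Eci2 and Acad11, whose products are known in both organelles, were both higher. The enoyl-CoA isomerase Eci2 was at 112 CPM in sham and 219 in nephrectomy proximal tubule, a ratio of 1.96 (1.83 to 2.10). Acad11, an acyl-CoA dehydrogenase that also handles hydroxylated fatty acids, was at 141 and 228, a ratio of 1.62 (1.52 to 1.72).

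Of the 12 peroxisomal members, the 4 above the bound were Ehhadh, Hsd17b4, Abcd3 and Acaa1b. Ehhadh, the bifunctional hydratase and dehydrogenase (chr16:21761287-21787807), was at 183 CPM in sham and 450 in nephrectomy, a ratio of 2.46 (2.34 to 2.59). Hsd17b4, the second bifunctional enzyme, was at 114 and 190 (ratio 1.67, 1.56 to 1.79). Abcd3, a transporter of acyl-CoA across the peroxisomal membrane, was at 335 and 522 (1.56, 1.496 to 1.62). The thiolase Acaa1b was at 196 and 324 (1.65, 1.57 to 1.74), while its close copy Acaa1a was at 44.4 and 43.0 (0.968, 0.855 to 1.10). Reads may be split between these near-identical copies, and with both summed the ratio was 1.53.

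The peroxisomal members at least 1.5 times lower were Acox2 and Scp2. Acox2, the oxidase for branched chains and bile acid intermediates, was at 103 CPM in sham and 65.5 in nephrectomy, a ratio of 0.638 (0.583 to 0.698). Scp2, whose long product SCPx is the thiolase for those substrates, was at 756 and 492, a ratio of 0.650 (0.629 to 0.672). UMIs of Scp2 were summed over the gene and do not separate SCPx from its other products. The remaining peroxisomal members lay between the bounds: Slc27a2, a very long-chain acyl-CoA synthetase (1.251), Acox3, another oxidase of branched chains (1.31), Cat, the catalase that removes hydrogen peroxide (1.12), Pex5, the import receptor (1.15), and Crot, the octanoyltransferase that exports shortened chains (0.891). Acox2 and Acox3, which share a substrate class, had ratios on opposite sides of 1.

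The share of proximal tubule nuclei with at least 1 UMI was higher in nephrectomy for 26 of the 35 genes and lower for 9, both before and after thinning. No such count was made over all genes. Thick ascending limb and endothelial nuclei also had 26 and 9 before thinning, and 19 and 16 and 20 and 15 after it. After thinning the counts were 28 and 7 in S1, 24 and 11 in S2, and 17 and 18 in S3. Before thinning, S3 had 27 and 7. Ehhadh was seen in 64.8% of sham and 76.9% of nephrectomy proximal tubule nuclei (median depth 9502.5 and 10477 UMIs). With every nucleus thinned to 1000 UMIs, the Ehhadh shares were 15.9% (13.6 to 18.3) and 30.3% (27.6 to 33.1). In endothelial nuclei, which should hold little Ehhadh, the unthinned shares were 13.9% and 18.2% (median depth 2881 and 3244.5 UMIs) and the thinned ones 5.97% and 5.56%. For Acsl1 the thinned proximal tubule shares were 16.4% (14.1 to 18.9) and 31.0% (28.3 to 33.8). Etfb went the other way, from 15.8% (13.5 to 18.2) to 10.1% (8.34 to 11.98) after thinning, and Scp2 from 52.0% (48.8 to 55.1) to 36.1% (33.3 to 39.1). The thinning left out 311 sham and 264 nephrectomy nuclei of all classes.

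The 3 segments of the proximal tubule differed in how many genes were higher. S1, the early convoluted part, is built here from clusters 1 and 12, with 323 sham and 504 nephrectomy nuclei. There 16 of 35 genes were at least 1.5 times higher, against 11.4% of all genes, and 2 were lower (Etfb and Scp2), against 9.62%. In S2, with 347 sham and 424 nephrectomy nuclei, 11 were higher (background 13.9%) and 3 lower (11.6%). In S3, the straight part, cluster 7 with 179 sham and 154 nephrectomy nuclei, 6 were higher (10.1%) and 2 lower (12.4%). The median log2 ratios of the 35 genes were 0.55 in S1, 0.27 in S2 and 0.10 in S3. S1 therefore had the largest share of members above the bound among the segments. Cluster 14 of the proximal tubule class, with 125 sham and 25 nephrectomy nuclei, had both S1 and S2 markers and was placed in no segment. In it 9 members were higher (background 17.3%) and 0 lower (14.8%), with a median log2 ratio of 0.37. The part of its absence in the segment results was not tested. In S3, the mean level per nucleus in place of the summed level gave 3 higher and 4 lower. Within the S2 class, S2 markers were at 5163 CPM in sham and 3258 in nephrectomy, and S1 markers at 3678 and 6048. S3 markers were at 3687 and 1822, and both the S2 and S3 markers include male-biased genes. The part of these markers in the S2 result was not tested.

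**Figure D2:**
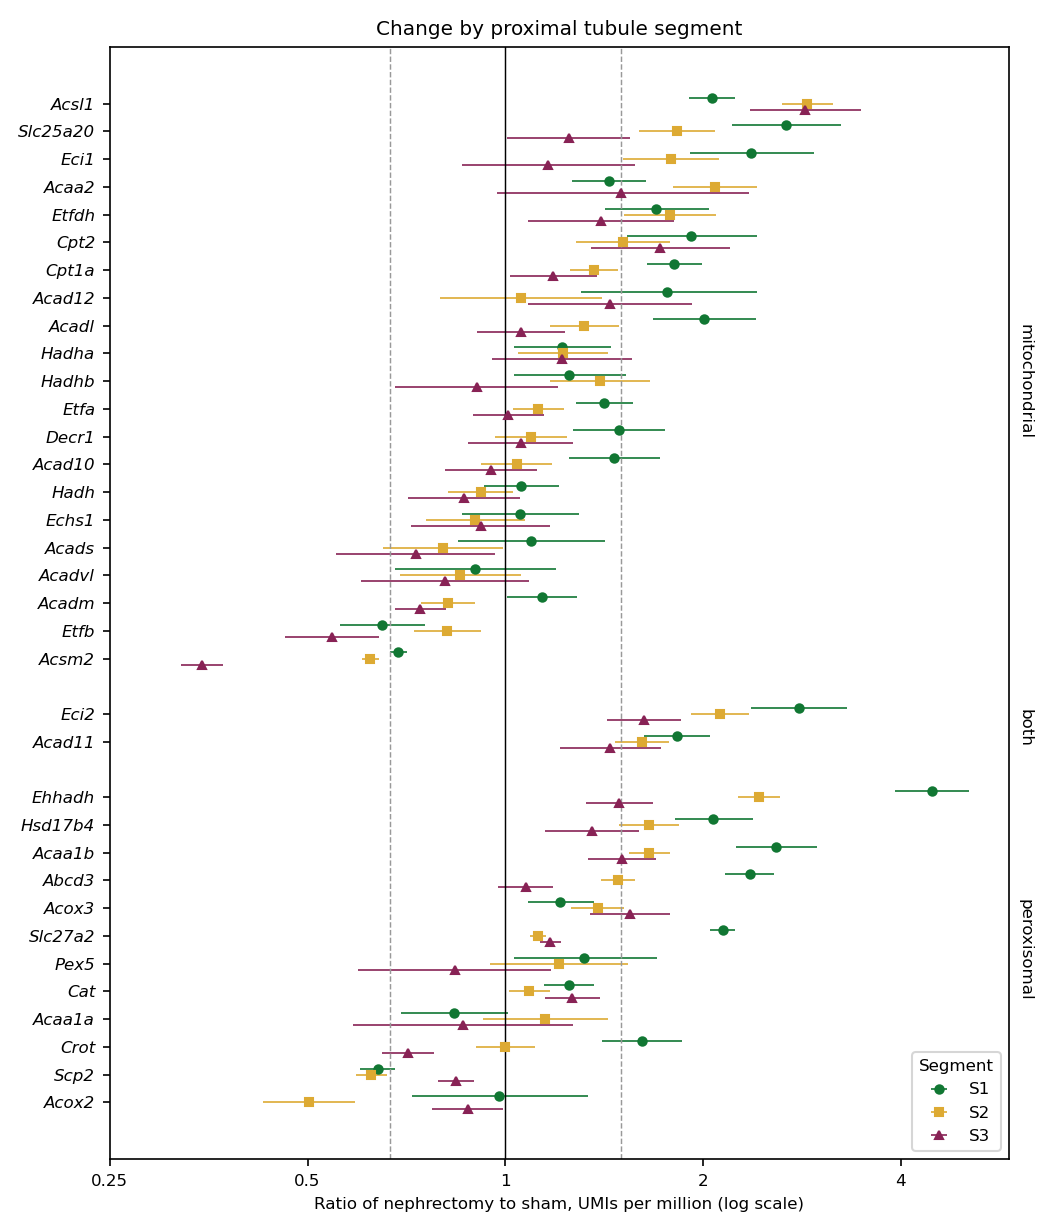
Ratio of nephrectomy to sham for each gene in S1 (green circles), S2 (yellow squares) and S3 (purple triangles), on a log axis with exact 95% counting intervals; dashed lines mark 1.5 times in either direction. Ehhadh reaches 4.46 in S1 and 1.49 in S3, whereas Acsl1 is above 2 in all 3 segments.

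Ehhadh had the largest difference of any member in any segment. In S1 it was at 81.1 CPM in sham and 362 in nephrectomy, a ratio of 4.46 (3.93 to 5.09). In S2 it was at 254 and 619 (2.44, 2.27 to 2.62), and in S3 at 229 and 342 (1.49, 1.33 to 1.68). The sham level was lowest in S1 and the nephrectomy level highest in S2. Within S1, cluster 1 alone, which had 285 sham and 334 nephrectomy nuclei, gave 78.7 and 263, a ratio of 3.34 (2.88 to 3.89). Cluster 12, with 38 sham and 170 nephrectomy nuclei, gave 96.1 and 517, a ratio of 5.38 (3.97 to 7.48). With the libraries centred before clustering, S1 held 516 sham and 667 nephrectomy nuclei. Ehhadh in S1 was then at 119 and 401, a ratio of 3.38 (3.10 to 3.69).

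Several other members also had their highest ratio in S1. Eci2 had a ratio of 2.80 (2.37 to 3.32) in S1, 2.13 in S2 and 1.63 (1.43 to 1.85) in S3. The carnitine carrier Slc25a20 had 2.67 (2.21 to 3.25), 1.82 and 1.249 (1.01 to 1.55). The transporter Abcd3 had 2.36 (2.16 to 2.57), 1.48 and 1.07 (0.975 to 1.18). Slc27a2, the very long-chain synthetase, was at 794 CPM in sham S1 and 1702 in nephrectomy S1, a ratio of 2.14 (2.05 to 2.24). It had 1.12 in S2 and 1.17 in S3. Crot had 1.61 (1.40 to 1.86) in S1 and 0.712 (0.649 to 0.780) in S3. In each of these genes the S1 and S3 intervals did not overlap.

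Acsl1 and Scp2 did not have their highest ratio in S1, and Acsm2 was below 1 throughout. Acsl1 was at 239 and 493 CPM in S1 (ratio 2.06), 165 and 476 in S2 (2.89), and 66.6 and 191 in S3 (2.86, 2.36 to 3.49). Acsm2 had its lowest ratio in S3, at 1334 in sham and 461 in nephrectomy (0.345, 0.321 to 0.371), against 0.623 in S2 and 0.687 in S1. Scp2 had a ratio of 0.639 (0.601 to 0.680) in S1 and 0.841 (0.789 to 0.895) in S3. Acsl1 was thus at least 2 times higher in every segment, with its lowest ratio in S1.

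The gradient of levels along the tubule differed between the libraries. In the sham library Ehhadh was 2.83 times (2.43 to 3.30) as high in S3 as in S1, and in the nephrectomy library 0.946 times (0.868 to 1.03). The same comparison gave 1.86 and 0.850 for Abcd3, 1.82 and 0.852 for Slc25a20, 6.42 and 2.83 for Crot, 3.42 and 1.99 for Eci2, and 3.21 and 1.75 for Slc27a2. Abcd3 and Slc25a20 thus lay above 1 in sham and below 1 in nephrectomy. Acox2, the member most biased to S3, kept its gradient at 12.5 (9.68 to 16.3) and 11.2 (9.16 to 13.7), and Acaa2, the member most biased to S1, at 0.173 and 0.181.

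**Figure D3:**
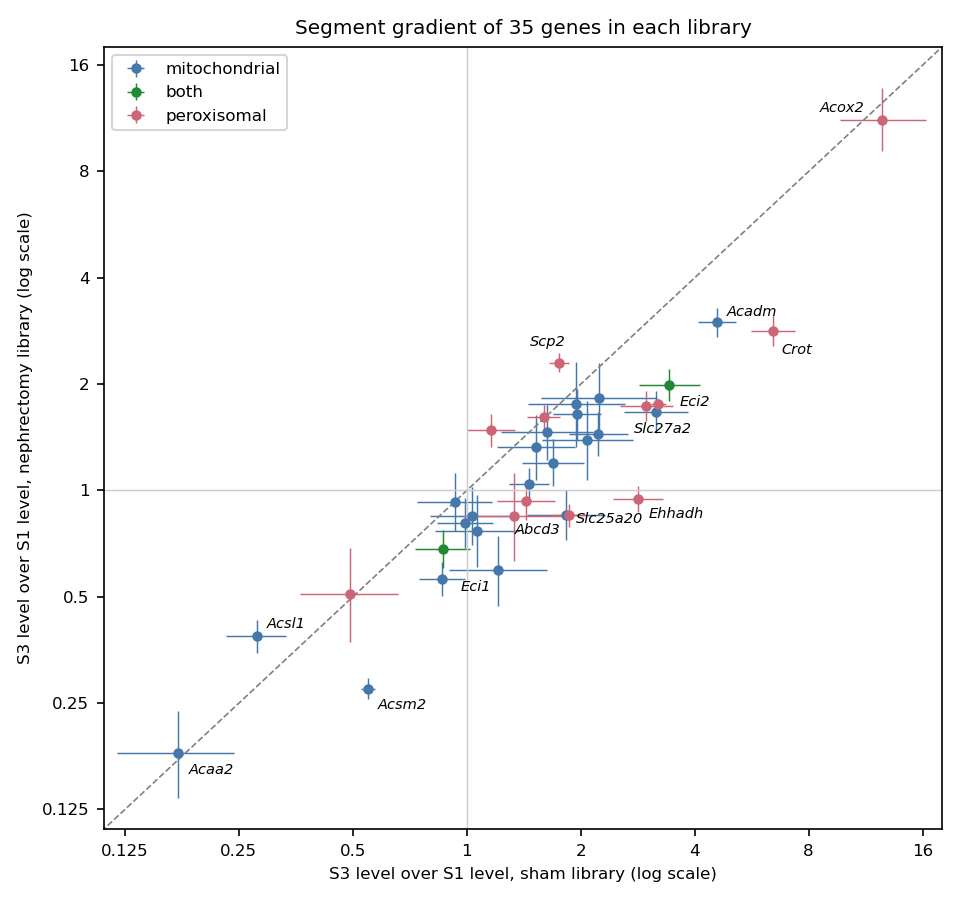
Level in S3 over level in S1 for each gene in the sham library (x axis) and in the nephrectomy library (y axis), both on log axes with exact 95% counting intervals and coloured by compartment; the dashed line marks equal gradients. Most genes lie below the line, Ehhadh, Abcd3, Slc25a20 and Crot among the furthest, while Acox2 and Acaa2 lie on it and Acsl1 and Scp2 above it.

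Over the 35 genes, the S3 ratio of nephrectomy to sham was below the S1 ratio in 29 (82.9%), against 52.3% of all genes measured in both segments. The interval of the ratio of these ratios was wholly below 1 in 19 and wholly above 1 in 3 (Acsl1, Acox3 and Scp2). Of 10776 genes measured in both segments, 10.5% were wholly below and 7.93% wholly above. The median ratio of ratios was 0.714 for the members and 0.985 for all genes. Ehhadh had the lowest at 0.335 (0.282 to 0.397), followed by Crot at 0.441 (0.374 to 0.520), Abcd3 at 0.456 (0.401 to 0.518) and Slc25a20 at 0.467 (0.353 to 0.619). When the libraries were centred before clustering, 17 members were wholly below 1, against 9.83% of all genes. With S1 taken from cluster 1 alone, 16 were, against 9.08%.

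S2 nuclei of the libraries lay mostly in different clusters. Cluster 9 held 261 sham nuclei and 2 from nephrectomy, and cluster 2 held 86 sham and 422 nephrectomy nuclei. The transporter Slc7a13, one of the male-biased genes above, was among the leading genes of cluster 9, and the lipid metabolism genes Cyp4a14 and Pdk4 were among those of cluster 2. Ehhadh was at 223 CPM in sham cluster 9, at 375 in sham cluster 2 and at 620 in nephrectomy cluster 2. Acsl1 was at 131, 299 and 477 in the same order. Slc25a20 was at 56.1, 187 and 150, and Acox2 at 117, 56.8 and 51.0. Sham nuclei of cluster 2 thus stood nearer to nephrectomy nuclei of that cluster than to sham nuclei of cluster 9 in Slc25a20 and Acox2, and between the groups in Ehhadh and Acsl1.

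Within cluster 2, 3 of 35 genes were at least 1.5 times higher in nephrectomy (Acaa2, Acsl1 and Ehhadh; background 11.6%) and 1 was lower (Scp2; 11.3%), with a median log2 ratio of 0.02. There Ehhadh had a ratio of 1.65 (1.47 to 1.87) and Acsl1 of 1.59 (1.39 to 1.83). Within cluster 1 of S1, 16 genes were higher (10.2%) and 2 lower (8.99%), with a median of 0.46. Within cluster 12, 16 were higher (17.6%) and 2 lower (12.2%), with a median of 0.49. Where only the clusters with at least 50 nuclei of each library (1, 2 and 7) were used and weighted equally, 3 of the 13 genes stayed at least 1.5 times higher in the whole proximal tubule (Acsl1, Ehhadh and Eci2), and 2 genes were lower. Slc25a20 then had a ratio of 1.12 and Abcd3 of 1.24. With the libraries centred before clustering, S1 had 15 higher and 2 lower, S2 (258 sham and 225 nephrectomy nuclei) 10 and 3, and S3 4 and 2.

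**Figure D4:**
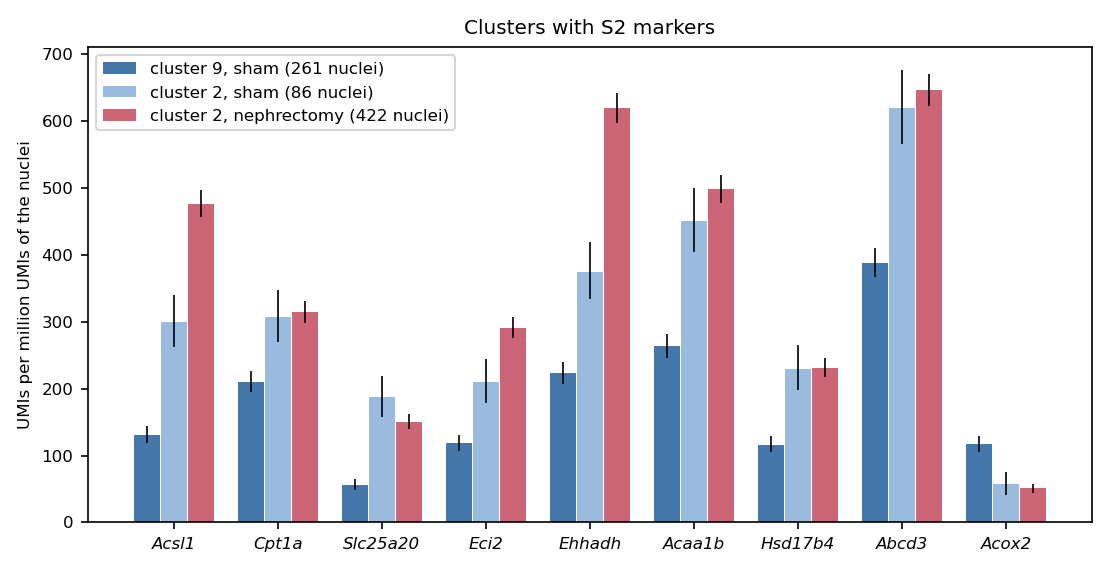
Levels of 9 members in the clusters with S2 markers, in CPM with exact 95% Poisson intervals: cluster 9 of the sham library, cluster 2 of the sham library and cluster 2 of the nephrectomy library. For Slc25a20, Hsd17b4, Abcd3 and Cpt1a the sham bar of cluster 2 is close to or above the nephrectomy bar, whereas Ehhadh and Acsl1 climb at each step.

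Other genes of the same pathways were measured in proximal tubule nuclei as well. Of 33 further peroxisomal genes, 9 were at least 1.5 times higher and 5 lower, with a median log2 ratio of 0.17. The reductase Decr2, which acts on unsaturated chains, was at 29.3 CPM in sham and 66.0 in nephrectomy, a ratio of 2.26 (1.98 to 2.58). The lowest were the CoA hydrolase Nudt19, at 197 and 81.8 (0.415), and Amacr, the racemase of branched chains and bile acid precursors, at 175 and 97.4 (0.558). Of 28 further mitochondrial genes, 3 were higher and 2 lower, with a median of 0.02. Acsl4 (2.01) and Acss1 (1.51) were highest, and Acsm3 (0.277), also one of the male-biased genes, and Acot9 (0.597) lowest. Of 15 peroxins, which assemble peroxisomes, only Pex11a (1.51) passed the bound.

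Of 22 known targets and regulators of PPAR receptors measured in proximal tubule, 11 were at least 1.5 times higher and 1 was lower, with a median log2 ratio of 0.61. Creb3l3, a transcription factor of lipid metabolism, had 6 UMIs in sham and 98 in nephrectomy, a ratio of 13.5 (5.97 to 37.6). The fatty acid transporter Cd36 was the lowest, at 152 CPM in sham and 80.0 in nephrectomy (0.525), and the coactivator Ppargc1b was at 137 and 125 (0.913).

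In the thick ascending limb, another segment rich in mitochondria, no member was above the bound. There (390 sham and 358 nephrectomy nuclei), 0 genes were at least 1.5 times higher (background 9.24%) and 6 were lower (12.5%), with a median log2 ratio of -0.09. The 6 were Acadm, Acadvl, Etfb, Acsm2, Scp2 and Crot, of which Acsm2 and Scp2 did not stand above free RNA in both libraries. Acsl1, which was at 461 CPM in sham and 470 in nephrectomy there, had a ratio of 1.02 (0.940 to 1.11), and Cpt1a, at 298 in each, a ratio of 1.00 (0.904 to 1.11). Hadha (174 and 177) and Hadhb (133 and 127) had ratios of 1.01 and 0.957. The sham level of Hadha in proximal tubule was 0.365 times its level in thick ascending limb. Ehhadh was at 40.8 and 29.98, no higher than the 42.9 and 43.6 that free RNA alone would give.

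Free RNA, released from broken cells, differed between the libraries in these classes. From the UMIs of 10 proximal tubule genes, it was put at 31.0% of UMIs in sham and 16% in nephrectomy thick ascending limb nuclei, 22.8% and 12.9% in distal convoluted tubule, and 34.8% and 25.3% in endothelium. In proximal tubule it came to 6.60% and 7.86%, from 3 thick ascending limb genes. All 35 members stood above the free RNA level in proximal tubule in both libraries, 28 in thick ascending limb, 27 in distal convoluted tubule and 12 in endothelium. With it subtracted, thick ascending limb nuclei had 5 genes higher and 3 lower, and proximal tubule nuclei 13 higher and 4 lower. Its part in the results of these other classes was otherwise not tested.

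Etfb and Acadm passed the lower bound in both thick ascending limb and distal convoluted tubule. Etfb was at 124 and 67.2 CPM in thick ascending limb (ratio 0.542, 0.448 to 0.653), at 79.8 and 48.1 in distal convoluted tubule (0.603, 0.453 to 0.804) and at 60.4 and 59.8 in connecting tubule (0.990, 0.671 to 1.48). Acadm had 0.665 (0.583 to 0.759), 0.644 (0.525 to 0.791) and 0.653 (0.495 to 0.865) in the same classes, against 1.14 (1.01 to 1.28) in S1. These ratios have no free RNA subtracted, and its part in them was not tested. Of 16 general proximal tubule genes, 7 were lower and 1 higher in thick ascending limb, with a median log2 ratio of -0.51. In distal convoluted tubule 4 of 15 were lower and 1 higher, with a median of -0.36.

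In distal convoluted tubule nuclei 0 members were higher (9.57%) and 5 lower (13.4%). In connecting tubule nuclei 7 of 34 measured were higher (13.7%) and 1 lower (13.8%), the latter being Acadm. Of the 7, only Acsl1, at 81.0 and 134 CPM (1.66, 1.22 to 2.29), stood above free RNA in both libraries. With nuclei of at least 500 genes, connecting tubule had 0 members higher and 9 lower. In endothelial nuclei 9 of 34 were higher (10.6%) and 0 lower (11.5%), and none of the 9 stood above free RNA in both. Counts there were small, for example 6 and 23 UMIs for Pex5.

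In the whole libraries, 4 members were at least 1.5 times higher (Slc25a20, Acsl1, Eci2 and Ehhadh; background 9.39%) and 4 lower (Etfb, Acsm2, Acox2 and Scp2; 10.7%). Ehhadh was at 139 CPM in sham and 273 in nephrectomy, a ratio of 1.97 (1.88 to 2.06), and Acsl1 at 196 and 347 (1.77, 1.70 to 1.84). Fewer nuclei of a type and less RNA per nucleus cannot be told apart in such sums. Proximal tubule nuclei made up 34.5% of sham and 36.5% of nephrectomy nuclei. In the largest unnamed cluster, of low depth and led by haemoglobin genes, 7 members were at least 1.5 times higher (17.8%) and 2 lower (12.3%).

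The length of the genes varied widely, from 5.23 kb for Acadvl to 101 kb for Scp2. Genes that were higher in proximal tubule had a median length of 27.0 kb, those between the bounds 30.3 kb and those lower 40.1 kb. Across the 35 genes the Spearman correlation of length with the log2 ratio was 0.16, and across 14456 genes 0.28. Genes are not independent replicates, and all share the same pair of libraries. Other annotated genes overlapped 20 of the 35, on the same strand for 10 and on the opposite strand for 15. Reads from the shared stretch of a same-strand pair cannot be told apart by strand. For opposite-strand pairs this depends on whether counting used strand, which is not stated.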

How the data were processed

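Per the file headers, the deposited values are UMI counts per gene and barcode, made by the authors with Cell Ranger on mm10. The submitters' processing notes give version 7.1.0 and the file header 7.0.1. Intron counting and barcode calling are not given in the sources used here. Gene positions came from GENCODE M21 (32235 of 32285 identifiers matched).

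Barcodes under 200 genes or above 10% mitochondrial UMIs (109 sham, 112 nephrectomy) were dropped. Scrublet called only 1 doublet, so the highest-scoring 3% of each library and 2 clusters rich in them were removed (153 sham and 158 nephrectomy nuclei). Clustering and naming came before the doublet removal and used 2000 variable genes (30 principal components, 15 neighbours, Leiden resolution 1). Members, related lists, mitochondrial and ribosomal genes were held out of the clustering. A class needed 3 markers at 2 times the mean level. The naming rule was revised after seeing the data: clusters led by haemoglobin genes, of low depth with few markers, or with genes of another class at 50% of the library level stayed unnamed.

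UMIs were summed per class and divided by its total. Ratios have exact conditional binomial intervals, levels Poisson intervals, shares Clopper-Pearson intervals, and ratios of ratios a log-normal interval, all at 95%. A count under 3 was set to 3 in counts and medians, which used genes with at least 20 UMIs over both libraries. Free RNA was estimated from another class's marker UMIs. Members, gene lists and alternatives were chosen with earlier results of these data known. All members could be named, and of each other list the 2 highest and 2 lowest ratios with at least 100 UMIs in proximal tubule; leading genes of clusters were named besides. Some genes that this rule names are not reported here. The ratio code was tested on simulated counts. Alternatives were other scalings (edgeR 4.0.16 TMM, median of ratios), filters, bounds, clusterings, weights, thinning and free RNA subtraction. Software was Python 3.11.15, scanpy 1.11.5, scipy 1.17.1 and R 4.3.3.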

Additional observations from a re-analysis of the deposited data

Results flagged for a closer look

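Crot, the peroxisomal octanoyltransferase, had ratios of nephrectomy to sham on opposite sides of 1 in different segments: 1.61 in S1 proximal tubule and 0.614 in thick ascending limb. With 1 library per group this difference was not tested. The thick ascending limb ratio has no free RNA subtracted, which was put at 31.0% of UMIs in sham and 16% in nephrectomy there. The part of free RNA in it was not tested.

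The largest unnamed cluster held 376 sham and 316 nephrectomy nuclei at a median of 1026.5 and 1027.5 UMIs, was led by haemoglobin genes and entered no class. In it the ratios were 1.72 for Cpt2, 2.36 for Slc25a20, 1.91 for Acsl1, 2.16 for Eci2, 1.58 for Acox3 and 1.79 for Abcd3, each with an interval above 1, while 17.8% of all genes measured there were at least 1.5 times higher.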

How the results depend on the processing

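No paired analysis was possible because each group was 1 library, and for the same reason no library could be left out. No cluster of injured proximal tubule was in the class, so leaving it out gave no value. One cluster (41 sham and 77 nephrectomy nuclei before doublet removal) scored best for injured proximal tubule, close to thin limb, and stayed unnamed. Another (117 and 54) scored best for proximal tubule and stayed unnamed for its genes of another class. Alternatives were compared on counts of members past the bound, on medians and on single ratios. In connecting tubule the median log2 ratio, 0.19, was below 0 in 5 of 15 alternatives (-0.20 to 0.23), in thick ascending limb, -0.09, above 0 in 2 of 16 (-0.12 to 0.07), and for mitochondrial members of the whole library, 0.07, below 0 in 1 of 12. Medians in proximal tubule and its segments stayed above 0. The balance of higher against lower counts also turned in connecting tubule, thick ascending limb, endothelium and S3 under alternatives given below. The 13 higher and 4 lower members in proximal tubule kept their direction in all 18 alternatives for single genes. Of the 13, 3 stayed past the bound in each of these (Acsl1 1.87 to 2.54, Ehhadh 1.79 to 2.71, Eci2 1.57 to 2.03), and of the 4, 0 did. The cause of the changes below was not tested, except where a bound is itself the change.

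In proximal tubule, a bound of 2 times gave 2 higher and 0 lower. Clusters with 50 nuclei of each library gave 3 higher and 2 lower, with a mitochondrial median of 0.12. Weighting S1, S2 and S3 equally gave 2 lower. Leaving out the sham S2 cluster or using only clusters 1 and 7, both chosen after seeing the data, gave 2 lower each. The peroxisomal median was 0.42 after thinning and 0.36 with the shared members added. In S1 the bound of 2 gave 10 higher and 0 lower, and at most 5% mitochondrial UMIs 0 lower. In S2 these gave 4 higher and 0 lower, and 1 lower. In S3 equal weight per nucleus gave 3 higher and 4 lower, the looser bound gave 12 and 5, and a bound of 2 gave 1 and 1.

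In thick ascending limb, members higher were 2 with equal weight per nucleus, 3 with the looser bound, 1 at resolution 0.5, 2 at resolution 2, 1 after thinning and 5 with free RNA subtracted. Members lower were 10 with the looser bound, 1 with a bound of 2, and 3 at resolution 0.5, at resolution 2 and with free RNA subtracted. In connecting tubule, members higher were 3 with equal weight, 11 and 1 with the looser bound and the bound of 2, 4 at 5% mitochondrial UMIs, 0 at 500 genes, 1 at resolution 2, 4 with libraries centred, 2 after thinning and 13 with free RNA subtracted. Members lower there were 3 with equal weight, 0 with TMM, 2 with 1 UMI in each library, 2 and 0 with the looser bound and the bound of 2, 4 at 5% mitochondrial UMIs, 9 at 500 genes, 4 at resolution 2, 4 with libraries centred, 3 after thinning and 5 with free RNA subtracted. In endothelium, members higher were 2 with at least 100 UMIs, 15 and 3 with the looser bound and the bound of 2, 3 after thinning and 14 with free RNA subtracted. Members lower there were 8 with the looser bound, 2 each at 5% mitochondrial UMIs, 500 genes, resolution 2 and with mixed clusters kept (chosen after seeing the data), 4 after thinning and 6 with free RNA subtracted. In the whole library, the looser bound and the bound of 2 gave 13 and 0 higher and 7 and 0 lower, and equal weight per nucleus a mitochondrial median of -0.0592. Depth limits the classes other than proximal tubule, where many members had under 100 UMIs a library.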
